A study of Macaca mulatta with 9 samples.

Results

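Aminoacyl-tRNA synthetases and the initiation and elongation factors of translation were examined in small antral follicles (SAFs) of rhesus macaques. The members were the probe sets whose only gene symbol in the array annotation was a single letter followed by ARS with an optional 1 or 2, was EPRS or EPRS1, or began with EIF or EEF and a digit. This rule uses names and no measured value. It took 143 of the 52865 probe sets on the array, which stand for 67 genes. Of these, 119 probe sets of 65 genes passed a filter on low signal and were tested among 26383 probe sets. Where a gene had several tested probe sets, the one brightest on average over the 9 arrays stands for it, and the 65 genes are set beside all 10002 tested genes, taken in the same way.

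Young adult females were sampled in their early follicular phase, at or near menses, in 3 groups of 3 ovaries with 1 array each. Females of the WSD+T group ate a Western-style diet and had chronically raised testosterone, females of the WSD group ate the same diet without testosterone, and control females ate a standard diet. Each array measured the whole cellular content of SAFs pooled by female and ovary, 3.7 ± 0.3 per ovary (the kind of error is not stated), so RNA of the cumulus-oocyte complex was mixed with that of granulosa cells and follicle wall. Follicles had been picked as presumably healthy by their clear antrum, and the values therefore say nothing of follicles without one.

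A synthetase joins an amino acid to the tRNAs that carry it. Most mammalian cells hold a cytosolic set and a separate mitochondrial set, also encoded in the nucleus, whose symbols end in 2 and which serves the few proteins made from mitochondrial DNA. GARS1 and KARS1 supply both compartments. Initiation starts when eIF2 brings the initiator tRNA to the small ribosomal subunit, which eIF3 holds and which eIF4E, eIF4G and eIF4A bring to the capped mRNA. Kinases that phosphorylate the alpha subunit of eIF2, EIF2S1, block its recycling by eIF2B, and the transcription factor ATF4 is then made and raises genes for amino acid supply, several cytosolic synthetases among them. In the follicle, growing oocytes store mRNAs for later translation and granulosa cells divide.

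The deposited values are linear MAS5 signals that had been scaled to a common trimmed mean, and median signals ran from 21.6 to 23.5 on WSD+T arrays, 15.9 to 21.4 on WSD arrays and 20.6 to 23.7 on control arrays. Fold changes are differences of group means of log2(signal + 16) with their standard errors (SE), which understate the change of genes with low signal. Adjusted p values are from limma over all tested probe sets, and a gene is called at an adjusted p under 0.05. The mean variance within groups was 0.0411 for WSD+T, 0.330 for WSD and 0.152 for control, and WSD+T replicates 1 and 3 correlated at 0.994. The summed signal of 8 proliferation markers was 5636 to 6768 in WSD+T, 5949 to 6390.0 in WSD and 11228 to 12439 in control follicles, and that of 9 of 11 granulosa markers was 9648 to 11014, 7679 to 12855 and 13285 to 17630.4 in the same order of groups. That of 13 of 15 myeloid markers was 18763 to 20534 in WSD+T, 1471 to 27417 in WSD and 2428 to 12181 in control follicles. It includes ITGAM, which was below the filter. The sum of 5 of 8 theca markers was 2984 to 3097 in WSD+T, 3110 to 4927 in WSD and 3947 to 5020.0 in control follicles. For 9 of 12 oocyte markers it was 1509 to 1754 in WSD+T, 1074 to 1711 in WSD and 608 to 1243 in control follicles. For 2 of 5 erythrocyte markers it was 231 to 347 in WSD+T, 589 to 684 in WSD and 589 to 896 in control follicles. In these sums WSD+T lay below control for proliferation, granulosa, theca and erythrocyte markers and above it for myeloid and oocyte markers, without overlap. WSD also lay below control without overlap for proliferation and granulosa markers, and overlapped control in the other sums, here and below. Sums of 9 of 10 endothelial markers were 2106 to 2436 in WSD+T, 534 to 3875 in WSD and 1257 to 2013 in control follicles. Those of 7 of 11 stromal markers were 10118 to 11835 in WSD+T, 7786 to 10966 in WSD and 8608 to 9975 in control follicles. KDR and COL3A1, which were below the filter, are included. For endothelial and stromal markers too, WSD+T and control did not overlap, with WSD+T higher. Such sums follow the brightest genes. In WSD+T against control, LUM (-1.33), COL1A1 (-0.13), SELE (-1.10), INHBA (0.16), ALAS2 (0.33) and AURKA (0.06) went against the sum of their list, none called. All other tested markers went with their sum. INHBA was called higher in WSD against control (0.51, adjusted p = 0.0448), where the other granulosa markers were below 0. The ratio of 3′ to 5′ GAPDH control signals, a sign of RNA quality, was 1.56 to 1.74 in WSD+T, 1.45 to 1.58 in WSD and 1.30 to 1.55 in control follicles, so that WSD+T and control did not overlap. The same ratio for actin was 2.49 to 2.97 in WSD+T, 2.20 to 2.99 in WSD and 2.52 to 2.90 in control follicles. For the elongation factor EF1a it was 0.877 to 0.966, 0.910 to 0.968 and 0.915 to 0.946 in the same order. Both of these overlapped between all groups. In such mixed tissue, fewer cells of a type and less RNA per cell cannot be told apart, and the part of cell makeup or RNA quality in the results below was not tested.

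WSD against control shows the diet without testosterone. Several genes for mitochondrial synthetases were lower in WSD than in control follicles: 6 of the 14 tested fell (LARS2, AARS2, EARS2, RARS2, SARS2 and HARS2), none rose and 8 did not pass the test. Of the 9 tested genes for cytosolic synthetases, GARS1 and WARS1 rose, none fell and 7 did not pass. Among all 65 genes 4 rose and 9 fell, and 15.4% of all tested genes were called, 4.74% higher and 10.7% lower. For the mitochondrial enzymes the share called lower was 42.9%, beside the 10.7% of all genes. Their median log2 fold change was -0.52, against -0.08 for all tested probe sets, and 13 of the 14 were below 0. The signals of WSD and control arrays did not overlap for 10 of the 14, with WSD lower, as was so for 22.0% of all genes. A fit of the WSD and control arrays alone, with no WSD+T arrays in the estimate of spread, called 1 of the 65 genes, LARS2. Of all 26383 tested probe sets it called 859, 285 higher and 574 lower, where the main fit called 3817. The drop in calls was thus not particular to the members.

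LARS2, which charges mitochondrial leucine tRNA, had a signal of 167, 167 and 167 on the WSD+T arrays, 80.5, 91.0 and 101 on the WSD arrays, and 228, 221 and 214 on the control arrays. The 3 groups were apart, with WSD lowest, WSD+T between and control highest. LARS2 fell in WSD against control (log2 fold change -1.15, SE 0.12, adjusted p = 0.00296), a ratio of mean signals of 0.411. It rose in WSD+T against WSD (0.78, SE 0.12, adjusted p = 0.0274), while WSD+T against control did not pass (-0.37, adjusted p = 0.161). The call in WSD against control held under all 20 other settings, with a highest adjusted p of 0.0323. The call in WSD+T against WSD was lost without WSD+T replicate 1 (adjusted p = 0.141), the highest of its leave-one-out fits, and held in 5 of those 9.

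AARS2, the mitochondrial alanine enzyme, had signals of 115, 179 and 143 in WSD+T, 85.0, 107 and 77.1 in WSD, and 125, 184 and 226 in control follicles. The highest WSD array lay below the lowest control array, and the WSD+T arrays overlapped the controls. The fold change in WSD against control was -0.85 (SE 0.24, adjusted p = 0.0451). EARS2, for glutamate, had signals of 116, 102 and 103 in WSD+T, 55.2, 75.6 and 78.4 in WSD, and 138, 170 and 98.4 in control follicles. Again every WSD array was below every array of the other groups. EARS2 fell by 0.80 on the log2 scale (SE 0.20, adjusted p = 0.0319), and another of its probe sets fell by 0.81 (adjusted p = 0.0341), whereas the other tested one was at -0.61 and did not pass (adjusted p = 0.136). An EARS2 probe set below the filter had mean signals of 11.9 in WSD+T, 10.8 in WSD and 7.27 in control follicles, with WSD and control arrays overlapping.

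HARS2, the mitochondrial histidine enzyme, showed a small but even difference, with 317, 324 and 316 in WSD+T, 241, 253 and 235 in WSD, and 332, 352 and 326 in control follicles. It fell by 0.44 in WSD against control (SE 0.12, adjusted p = 0.0360), the smallest change among the 6. RARS2, for arginine, had 219, 204 and 268 in WSD+T, 205, 122 and 142 in WSD, and 247, 257 and 259 in control follicles. WSD replicate 1 stood above its group and above WSD+T replicate 2, yet below all controls (-0.68, SE 0.19, adjusted p = 0.0489), and another tested RARS2 probe set was at -0.26 and did not pass. SARS2, for serine, had 88.8, 78.8 and 88.5 in WSD+T, 59.7, 57.8 and 76.4 in WSD, and 89.5, 109 and 106 in control follicles. The WSD+T values lay between the other groups without overlap, and SARS2 fell by 0.55 in WSD against control (SE 0.14, adjusted p = 0.0388). These 5 calls, unlike that of LARS2, were lost in many other settings: each passed in 1 to 3 of the 9 leave-one-out fits.

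Of the 8 mitochondrial enzymes that did not pass, NARS2, for asparagine, came nearest. Its signals were 259, 284 and 317 in WSD+T, 248, 206 and 389 in WSD, and 545, 419 and 481 in control follicles, so that both diet groups lay below the controls and overlapped each other. The fold changes were -0.78 in WSD against control (adjusted p = 0.0509) and -0.71 in WSD+T against control (adjusted p = 0.144). CARS2, FARS2 and TARS2, for cysteine, phenylalanine and threonine, also had every WSD array below every control array, at -0.52, -0.36 and -0.38. WARS2 was at -0.52, PARS2 at -0.45 and YARS2 at -0.18 with overlapping groups. MARS2, for methionine, was the exception in sign. Its signals were 542, 516 and 541 in WSD+T, 777, 537 and 770 in WSD, and 499.8, 526 and 468 in control follicles, and it did not pass (0.45, SE 0.16, adjusted p = 0.102). Another MARS2 probe set was at 0.56, and another WARS2 probe set at 0.13.

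**Figure D1:**
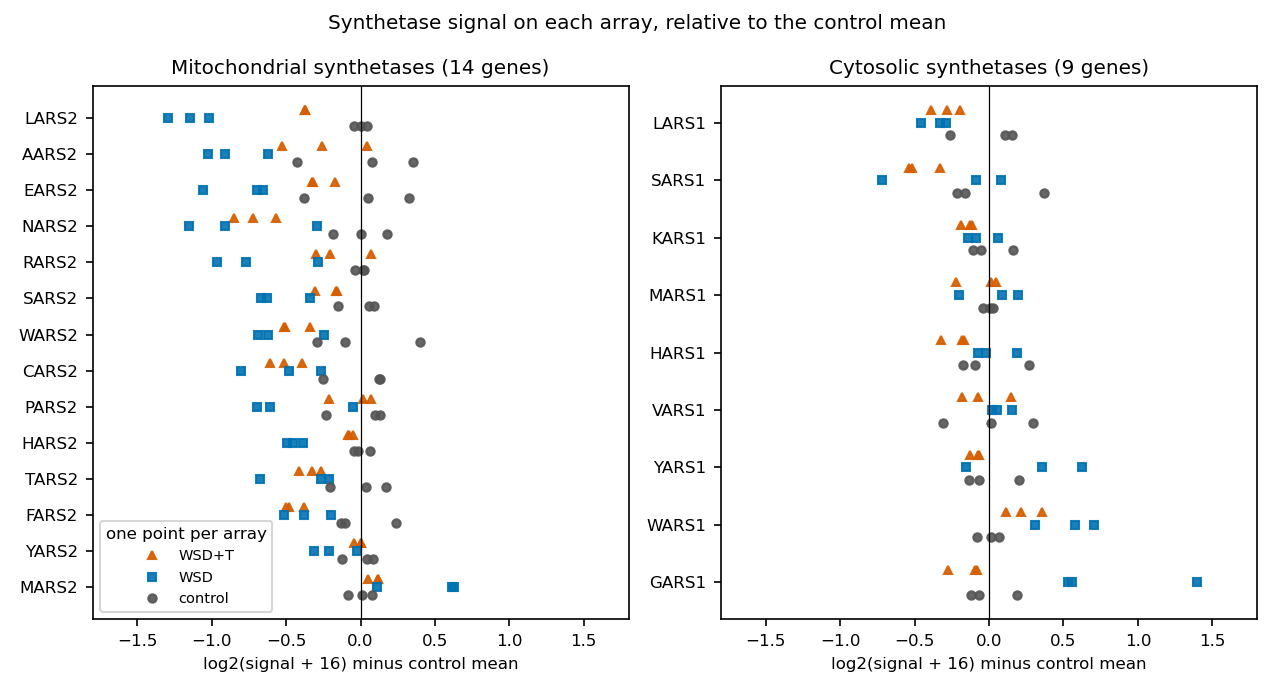
Each point is 1 array, placed by its log2(signal + 16) minus the mean of the control arrays, for the 14 mitochondrial synthetase genes (left) and the 9 cytosolic ones (right), with WSD+T as triangles, WSD as squares and control as circles. Genes run by their fold change in WSD against control, from LARS2 at -1.15 to MARS2 at 0.45 on the left, and 10 of the 14 have all WSD points left of all control points.

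WSD+T against control shows diet and testosterone together. Among the 65 genes, EIF4E fell, none rose and 64 did not pass, where 2.35% of all tested genes were called, 0.620% higher and 1.73% lower. None of the 14 mitochondrial enzymes was called with limma, 4 of them (NARS2, LARS2, FARS2 and CARS2) had an unadjusted p under 0.05, and 13 of the 14 were again below 0. Their median was -0.26, against -0.01 for all tested probe sets. The groups did not overlap, with WSD+T lower, for 8 of the 14, where this was so for 19.8% of all genes. Both comparisons with control use the same control arrays, so the shared sign is not a repeated observation.

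WSD+T against WSD shows testosterone on top of the diet. Of the 65 genes, LARS2 rose, EIF5A fell and 63 did not pass, and 2.85% of all tested genes were called, 2.06% higher and 0.790% lower. Of the mitochondrial enzymes 12 of 14 were above 0, with a median of 0.25, against 0.09 for all tested probe sets. The same WSD arrays enter this comparison and WSD against control. Opposite signs in these 2 comparisons, above and below, are therefore not separate observations. The groups did not overlap, with WSD+T higher, for 5 of the 14 (AARS2, EARS2, HARS2, LARS2 and SARS2), beside 18.2% of all genes. FARS2 (-0.09) and MARS2 (-0.35) were below 0, and neither passed.

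The mean of the 14 mitochondrial genes, each centred over the 9 arrays, was -0.01 ± 0.03 in WSD+T, -0.26 ± 0.06 in WSD and 0.26 ± 0.07 in control follicles (log2 scale, SD, n = 3 each). The arrays were at -0.04, -0.01 and 0.03 in WSD+T, at -0.21, -0.32 and -0.24 in WSD, and at 0.20, 0.25 and 0.33 in control follicles. No array of one group reached the range of another. The mean of the 9 cytosolic enzymes was -0.13 ± 0.04 in WSD+T, 0.13 ± 0.17 in WSD and 0.00 ± 0.10 in control follicles. The difference of both means, which a shift of all log2 values of an array cannot move, was 0.13 ± 0.03 in WSD+T, -0.38 ± 0.17 in WSD and 0.26 ± 0.07 in control follicles, again without overlap. For 3 against 3 arrays the smallest two-sided exact permutation p is 0.1, and no test was made of these means.

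**Figure D2:**
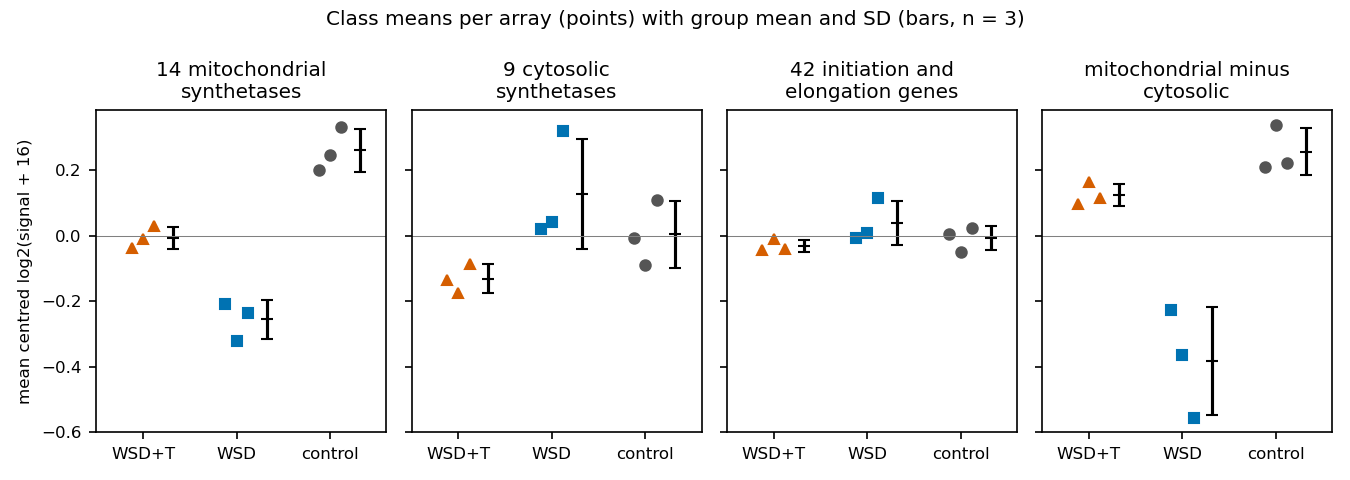
Points are arrays and bars are group means with SD (n = 3) of the centred log2(signal + 16), averaged over 14 mitochondrial synthetases, 9 cytosolic synthetases and 42 initiation and elongation genes, with the mitochondrial minus the cytosolic mean in the last panel. The mitochondrial mean is lowest in WSD (-0.26), near 0 in WSD+T (-0.01) and highest in control follicles (0.26), while the factors stay within -0.05 and 0.11 on every array.

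GARS1, which charges glycine tRNA in cytosol and mitochondria, had signals of 201, 174 and 199 in WSD+T, 317, 323 and 589 in WSD, and 246, 204 and 196 in control follicles. All WSD arrays were above all others, and replicate 3 was well above its group. GARS1 rose in WSD against control (0.83, SE 0.23, adjusted p = 0.0482), and WSD+T against WSD was at -0.98 and did not pass (adjusted p = 0.0610). WARS1, the cytosolic tryptophan enzyme, had 610.2, 570.1 and 676 in WSD+T, 655, 789.7 and 866 in WSD, and 529, 550.2 and 496 in control follicles. WARS1 rose in WSD against control (0.53, SE 0.15, adjusted p = 0.0446), with another probe set at 0.61 (adjusted p = 0.0343) and 1 more at 0.61 that did not pass (adjusted p = 0.135). WARS1 is also known to be induced by interferon gamma. Both calls lay close to the threshold, and GARS1 and WARS1 passed in 2 and 1 of the 9 leave-one-out fits.

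The other 7 cytosolic enzymes did not pass in WSD against control. YARS1, for tyrosine, was at 0.28, with signals of 548, 525 and 545 in WSD+T, 513, 741 and 895 in WSD, and 662, 523 and 548 in control follicles, so that its WSD arrays spread across both other groups. VARS1 (0.08), HARS1 (0.03) and MARS1 (0.03) were near 0, as was KARS1 (-0.06), the lysine enzyme shared with mitochondria, for which 4 of 4 probe sets lay between -0.14 and -0.06. LARS1, the cytosolic partner of LARS2, was at -0.36 (adjusted p = 0.148), with signals of 743, 645 and 699 in WSD+T, 673, 617 and 695 in WSD, and 918, 707 and 951 in control follicles. SARS1, for serine, was at -0.24 with overlapping groups. The median of the 9 cytosolic enzymes was 0.03 in WSD against control. None of the 9 was called with limma in WSD+T against control, none had an unadjusted p under 0.05, and 8 of 9 were below 0 with a median of -0.14. Nor was any called in WSD+T against WSD, where GARS1 had an unadjusted p under 0.05, and the median was -0.22.

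Of 13 cytosolic synthetases known in mammalian cells as targets of ATF4, 7 were measured (GARS1, LARS1, MARS1, SARS1, VARS1, WARS1 and YARS1). In WSD against control 2 rose, none fell and 5 were above 0, with a median of 0.08, where 4.74% of all tested genes were called higher and 10.7% lower. Beside them, of 18 tested genes from a list of 30 for amino acid supply and the integrated stress response, 5 rose in WSD and none fell, with a median of 0.47, beside the same shares of all genes. ASNS, the asparagine synthetase, had signals of 324, 288 and 537 in WSD+T, 556, 394 and 1268 in WSD, and 165, 146 and 172 in control follicles (1.92 in WSD against control, adjusted p = 0.0166). CHAC1, an ATF4 target that breaks down glutathione, had 9.79, 10.4 and 73.1 in WSD+T, 343, 122 and 410.0 in WSD, and 8.76, 16.9 and 1.64 in control follicles. SLC7A11, the cystine transporter, had 27.4, 14.6 and 79.9 in WSD+T, 144, 162 and 843 in WSD, and 16.5, 17.5 and 10.3 in control follicles. Both are among the 5, but every control array was under the filter signal of about 21.2, so they entered the tests through the other arrays, and no fold is given. The count of 5 and the median of 0.47 include both, so no conclusion is drawn from that count beside the shares of all genes. ASNS, DDIT4 and NUPR1 are the rest of the 5. DDIT4 and NUPR1 rose by 0.84 and 0.69, and ATF4 itself was at 0.49 and did not pass (adjusted p = 0.0830). WSD replicate 3 was the highest array for ASNS, SLC7A11, CHAC1 and GARS1. In WSD+T against control ATF5 rose (0.70, adjusted p = 0.0440) and the other 17 did not pass. CHAC1 alone was called in WSD+T against WSD, as lower. Its WSD+T signals of 9.79 and 10.4 were also under the filter signal. CHAC1 thus entered the tests mainly through the WSD arrays, and no p is given for that call.

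Of the 42 tested initiation and elongation genes, 2 rose (EIF5A2 and EIF1B), 3 fell (EIF4E, EIF4G3 and EIF2B3) and 37 did not pass in WSD against control, with a median of 0.09. The shares of 4.76% higher and 7.14% lower stand beside 4.74% and 10.7% of all tested genes. EIF1B, a close relative of the start-codon factor EIF1, had signals of 1419, 1458 and 1537 in WSD+T, 1856, 1845 and 2016 in WSD, and 1483, 1391 and 1407 in control follicles. Its WSD arrays were above all others, and it rose with an adjusted p at the threshold (0.41, SE 0.12, adjusted p = 0.0499) that no leave-one-out fit passed. EIF1 had 4290.5, 4787 and 4247 in WSD+T, 5296, 4648 and 4868 in WSD, and 4078, 3828 and 4733 in control follicles, and did not pass (0.23, adjusted p = 0.283). EIF1AD was at -0.17.

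In the eIF2 group of 8 genes, EIF2B3, a subunit of the exchange factor eIF2B, fell and 7 did not pass. EIF2B3 had signals of 505, 441 and 484 in WSD+T, 377, 377 and 394 in WSD, and 598, 538 and 659.6 in control follicles. The 3 groups were apart, with WSD+T between the other 2. The change in WSD against control was -0.62 (SE 0.13, adjusted p = 0.0180), and it held in 8 of the 9 leave-one-out fits. EIF2B5, the catalytic subunit of the same complex, was at -0.33 (adjusted p = 0.148), with signals of 241, 249 and 263 in WSD+T, 184, 217 and 174 in WSD, and 278, 223 and 237 in control follicles. Its WSD arrays were below all others. EIF2B1 was at 0.05.

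EIF2S1, the subunit that eIF2 kinases phosphorylate, lay in the other direction and just missed the threshold. Its signals were 924, 859 and 950.0 in WSD+T, 1088, 1071 and 1478 in WSD, and 763, 924 and 751 in control follicles (0.56, SE 0.17, adjusted p = 0.0559). All 4 of its probe sets were above 0, from 0.05 to 0.57, and none passed. EIF2AK3, the kinase PERK that responds to stress of the endoplasmic reticulum, had overlapping groups of 167, 128 and 158 in WSD+T, 108, 177 and 199 in WSD, and 152, 193 and 125 in control follicles. Its fold change in WSD against control was 0.02 (SE 0.24, adjusted p = 0.968). EIF2S2, the beta subunit, had 2453, 2453 and 2359 in WSD+T, 1557, 2010.2 and 1468 in WSD, and 1476, 1715 and 1481 in control follicles, with WSD+T above both others, at 0.63 against control (adjusted p = 0.0760) and 0.54 against WSD (adjusted p = 0.0920). Its other 3 tested probe sets were below 0 in WSD+T against control, down to -0.34. EIF2S3, the gamma subunit, was at 0.05 and EIF2D, an initiation factor that can act without eIF2, at -0.27.

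All 11 tested genes of eIF3 were above 0 in WSD against control, from 0.02 for EIF3I to 0.46 for EIF3J, with a median of 0.24, and none was called with limma; EIF3J alone had an unadjusted p under 0.05. In WSD+T against control 7 of 11 were above 0 with a median of 0.03, and in WSD+T against WSD 10 of 11 were below 0 with a median of -0.19. WSD against control and WSD+T against WSD share the WSD arrays, so their opposite signs are not separate observations. EIF3E, EIF3F and EIF3H, core subunits with high signals, illustrate the overlap of groups. EIF3H had 2975, 3132 and 3066 in WSD+T, 3589.8, 3133 and 3815 in WSD, and 3078, 2514 and 3356 in control follicles (0.24, adjusted p = 0.309). EIF3F was at 0.21 and EIF3E at 0.08. EIF3K, at 0.42 in WSD against control, was higher on every WSD+T array (308, 297 and 278) than on every control array (237, 164 and 188), without passing (0.56, adjusted p = 0.182). EIF3J is a loosely bound subunit, and its signals were 892, 976 and 1053 in WSD+T, 1351, 998 and 1428 in WSD, and 867, 912 and 925 in control follicles (0.46, adjusted p = 0.0932).

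In the eIF4 group of 8 genes, EIF4E and EIF4G3 fell in WSD against control, and 6 did not pass. EIF4E binds the mRNA cap, and its signals were low: 32.8, 51.0 and 34.1 in WSD+T, 46.0, 36.7 and 66.5 in WSD, and 94.6, 87.8 and 105 in control follicles. All arrays of both diet groups lay below all controls, and the diet groups overlapped. EIF4E fell in WSD against control (-0.79, SE 0.20, adjusted p = 0.0344) and in WSD+T against control (-1.03, SE 0.20, adjusted p = 0.0440). It was the 1 member gene called in WSD+T against control, and that call was lost without WSD+T replicate 1 (adjusted p = 0.211). EIF4G3, a scaffold of the cap-binding complex, had 1579, 1365 and 1425 in WSD+T, 1099, 1251 and 988 in WSD, and 1643, 1765 and 1683 in control follicles. The groups did not overlap, and the change in WSD against control was -0.61 (SE 0.14, adjusted p = 0.0227). The other tested EIF4G3 probe sets were at -0.49 and -0.02 and did not pass. Its relatives EIF4G1 (0.16) and EIF4G2 (0.06) did not pass, and EIF4G2 had 4539.6, 4834 and 4293 in WSD+T, 4769, 4103 and 4945 in WSD, and 4164, 4315 and 4801 in control follicles.

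EIF4ENIF1, the carrier that moves EIF4E into the nucleus and holds stored mRNAs in oocytes, had 378, 428 and 383 in WSD+T, 228, 271 and 301 in WSD, and 392, 429.8 and 312 in control follicles. Its WSD arrays were below all others, without passing (-0.47 in WSD against control, adjusted p = 0.0903, and 0.55 in WSD+T against WSD, adjusted p = 0.105). The cap-binding relatives EIF4E2 and EIF4E3 were at 0.20 and 0.29, and the helicase EIF4A2 at -0.20, in WSD against control.

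**Figure D3:**
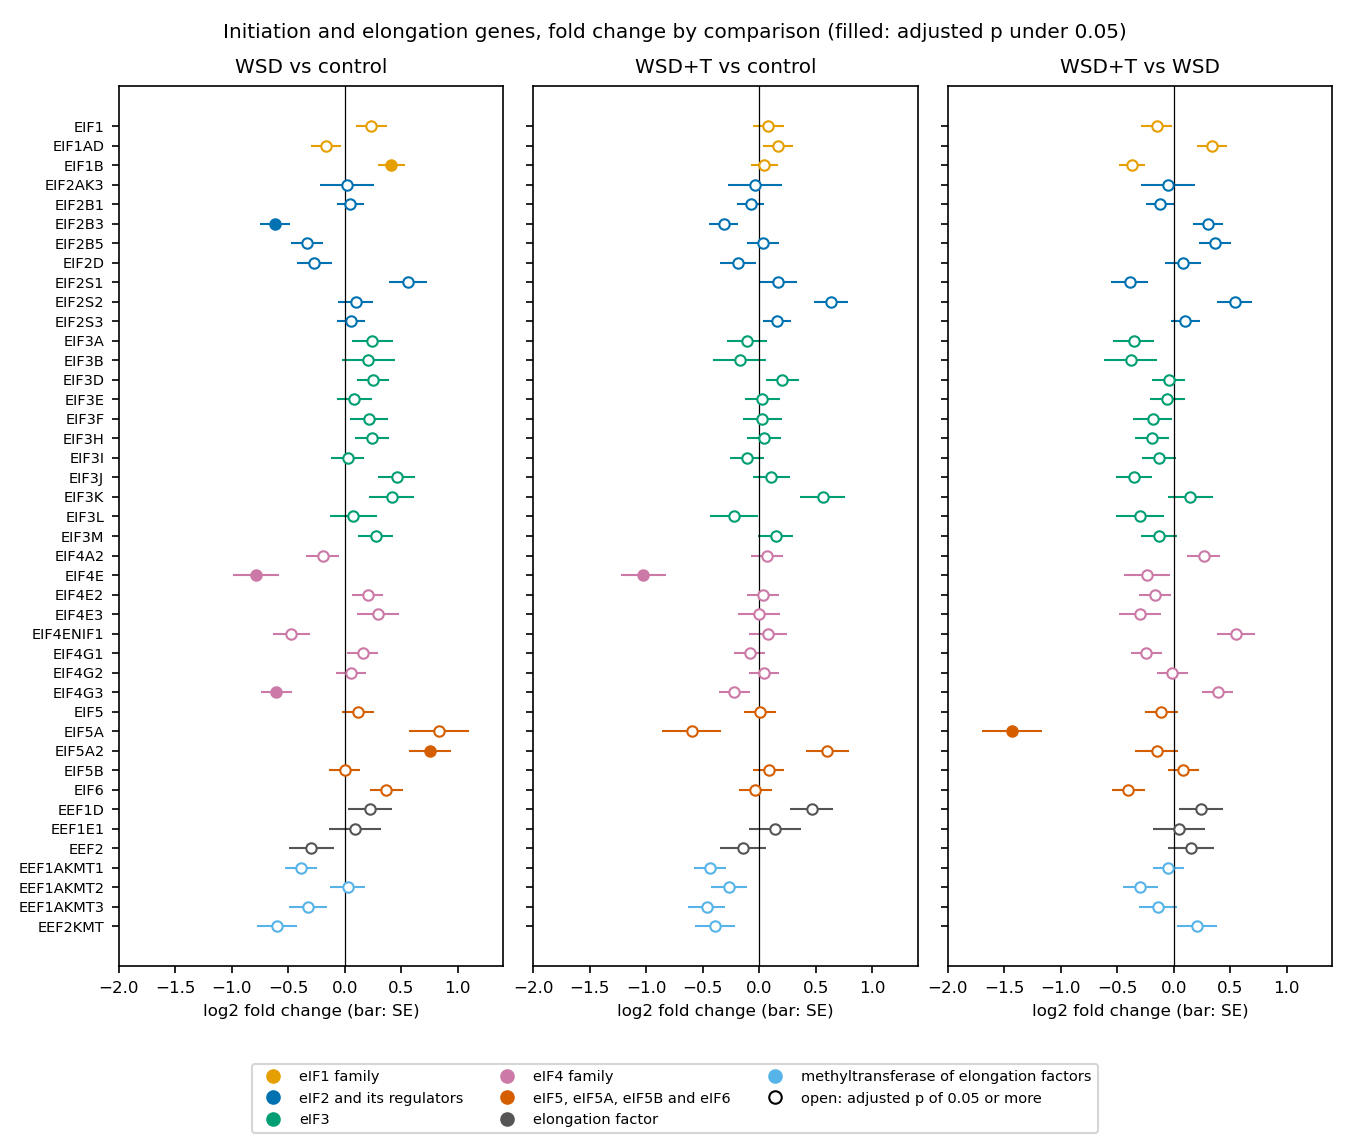
Log2 fold changes with SE of the 42 initiation and elongation genes in WSD against control, WSD+T against control and WSD+T against WSD, coloured by class, filled where the adjusted p was under 0.05. Filled points are EIF1B, EIF2B3, EIF4E, EIF4G3 and EIF5A2 in the first panel, EIF4E in the second and EIF5A in the third, and the 11 eIF3 genes all lie right of 0 in the first.

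EIF5A, which carries the amino acid hypusine and helps ribosomes through stalling stretches, had low signals of 39.5, 27.6 and 28.1 in WSD+T, 142, 134 and 72.6 in WSD, and 38.2, 67.8 and 65.7 in control follicles. Its WSD arrays were above all others, and WSD+T and control overlapped. EIF5A fell in WSD+T against WSD (-1.43, SE 0.26, adjusted p = 0.0351), a ratio of mean signals of 0.273, but the call was lost without WSD+T replicate 2 (adjusted p = 0.152). WSD against control was at 0.83 and did not pass as deposited (SE 0.26, adjusted p = 0.0686), but passed after quantile normalization, median centring and cyclic loess, with array weights (lowest adjusted p = 0.00136) and without WSD replicate 3 (adjusted p = 0.0124), and missed in all other settings (highest 0.175). Its paralog EIF5A2 had 406, 367 and 407 in WSD+T, 363, 509.7 and 455 in WSD, and 324, 234 and 214 in control follicles. Both diet groups were above the controls for EIF5A2, which rose in WSD (0.75, SE 0.19, adjusted p = 0.0323), while WSD+T against control did not pass (0.60, adjusted p = 0.142). The other 3 probe sets of EIF5A2 lay between -0.01 and 0.36 in WSD against control, and none passed. Of the 9 leave-one-out fits, EIF4E passed in 2 for each comparison with control, EIF4G3 in 5 and EIF5A2 in 3 for WSD against control, and EIF5A in 4 for WSD+T against WSD.

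EIF6, which keeps free large ribosomal subunits apart from small ones, had 1340.2, 1374 and 1444 in WSD+T, 1732, 1786 and 1998 in WSD, and 1429, 1219 and 1640.0 in control follicles. Its WSD arrays were above all others, without passing (0.37, adjusted p = 0.127). EIF5 and EIF5B, which complete start-codon selection and subunit joining, did not pass either, EIF5 at 0.11 and EIF5B within 0.01 of 0.

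**Figure D4:**
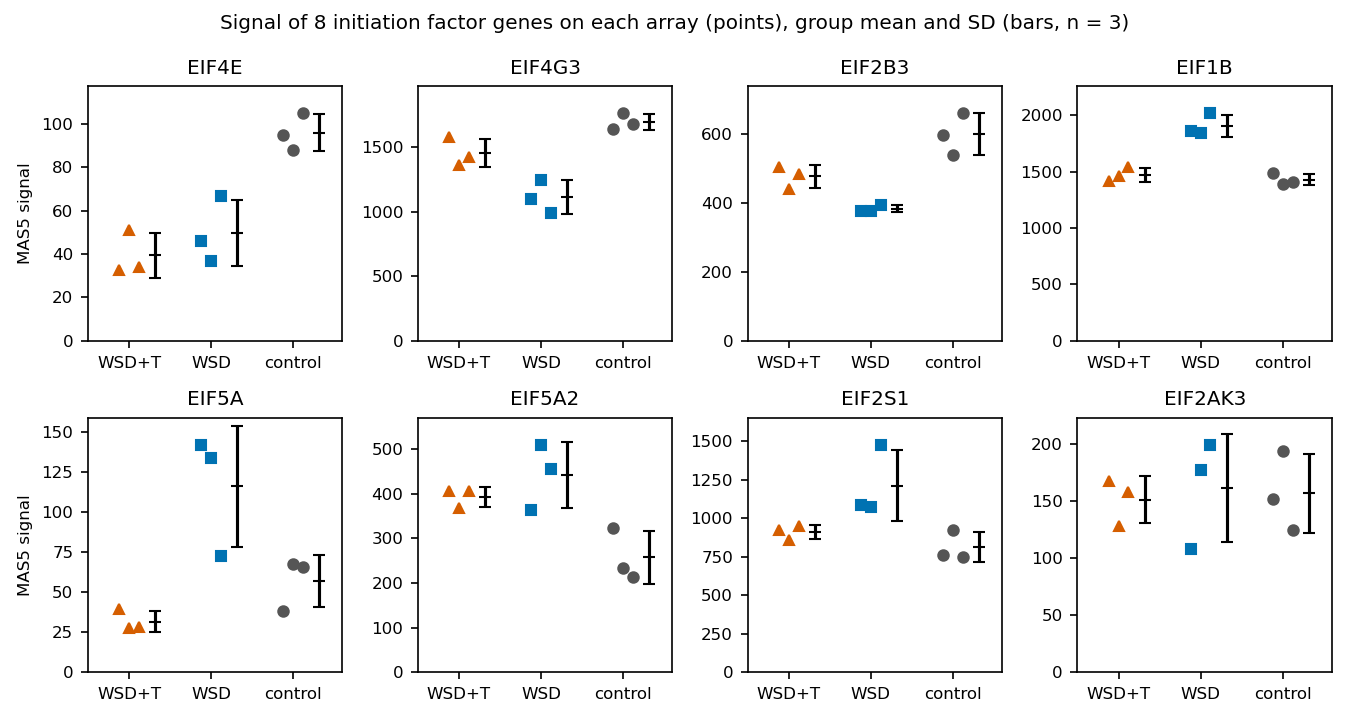
MAS5 signal of 8 initiation factor genes on each array, as points, with group mean and SD (n = 3) as bars, WSD+T left, WSD in the middle and control right, on axes that start at 0. EIF4E is low in both diet groups, with all values under the lowest control of 87.8, EIF5A is higher on every WSD array than on any other, and EIF2AK3 overlaps in all groups.

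Few elongation genes were measured. EEF2, the translocase, had low signals of 53.8, 31.8 and 33.7 in WSD+T, 31.9, 43.9 and 26.3 in WSD, and 41.3, 40.1 and 53.9 in control follicles, with overlapping groups (-0.30 in WSD against control, adjusted p = 0.347). EEF1D, an exchange subunit of eEF1, had 325, 314 and 319 in WSD+T, 216, 239 and 369.9 in WSD, and 229.7, 215 and 237 in control follicles. All WSD+T arrays were above all controls (0.46, adjusted p = 0.237). EEF1E1, a scaffold part of the complex that holds several cytosolic synthetases, was at 0.09. EEF1A1, the factor that delivers charged tRNAs, was present on 4 array control probe sets that were left out of the tests, and its signals overlapped between groups, at 6050.0, 6709.8 and 5603 in WSD+T, 6739.9, 5565 and 6583 in WSD, and 5560.1, 5589.9 and 7229.8 in control follicles for its 5′ probe set. EEF1A2 was below the filter. The methyltransferases EEF1AKMT1, EEF1AKMT2, EEF1AKMT3 and EEF2KMT, which modify these elongation factors, were at -0.39, 0.02, -0.33 and -0.60 in WSD against control and at -0.44, -0.27, -0.47 and -0.40 in WSD+T against control, and none passed. EEF2KMT came nearest, with 155, 169 and 187 in WSD+T, 116, 178 and 148 in WSD, and 219, 264 and 205 in control follicles (adjusted p = 0.0553 in WSD against control). Its other tested probe set was at 0.09 in WSD and at -0.05 in WSD+T against control.

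Counted by probe set, 6 of 119 rose and 11 fell in WSD against control, where 14.5% of all tested probe sets were called, 4.78% higher and 9.68% lower. A single one fell in WSD+T against control, beside 1.97% of all called, 0.542% higher and 1.43% lower. For WSD+T against WSD 2 rose and 1 fell, beside 2.99% called, 2.04% higher and 0.948% lower. Of 28 genes with several tested probe sets, 19 had them all on 1 side of 0 in WSD against control, and no gene was called in both directions. The probe sets of EIF2S3 disagreed. A probe set with signals of 254, 217 and 194 in WSD+T, 94.0, 78.8 and 112 in WSD, and 179.6, 186 and 147 in control follicles fell in WSD (-0.76, adjusted p = 0.0221) and rose in WSD+T against WSD (1.10, adjusted p = 0.0248), while the representative probe set was at 0.05 and 0.10. EIF3J had 4 probe sets above 0, from 0.45 to 1.13, of which 1 was called in WSD against control (1.13, adjusted p = 0.0203). Which transcripts these probe sets measure was not tested.

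**Figure D5:**
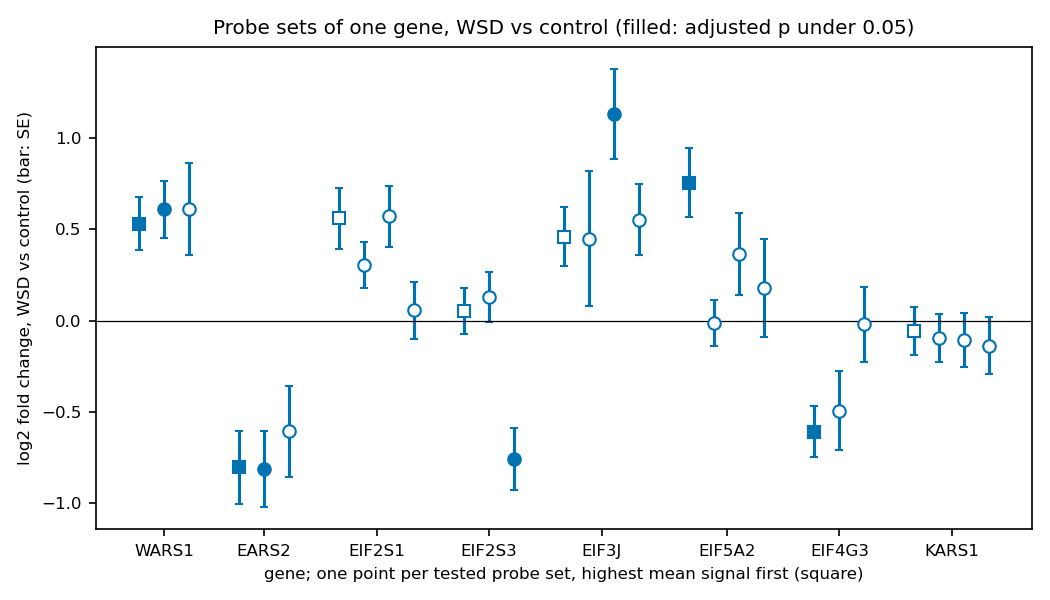
Log2 fold change in WSD against control with SE for every tested probe set of 8 genes, the representative as a square, filled where the adjusted p was under 0.05. Probe sets of WARS1, EARS2 and KARS1 lie close together, whereas those of EIF2S3 run from -0.76 to 0.13 and those of EIF5A2 from -0.01 to 0.75.

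Genes of mitochondrial translation outside the synthetases were mixed. Of 14 tested genes from a list of 17, 1 rose and 2 fell in WSD against control, with a median of -0.14. Over all tested genes 4.74% were called higher and 10.7% lower. GFM2, which recycles mitochondrial ribosomes, had signals of 271, 310.3 and 275 in WSD+T, 287, 242 and 194 in WSD, and 419, 545 and 523 in control follicles, with both diet groups below the controls, and fell in WSD (adjusted p = 0.0101). MTRF1, a mitochondrial release factor, had 438, 369.9 and 477 in WSD+T, 238, 285 and 151 in WSD, and 517, 430.0 and 519 in control follicles, and fell in WSD (-1.10, adjusted p = 0.0159). MRPL58, which frees stalled mitochondrial ribosomes, went the other way, with 258, 172 and 264 in WSD+T, 498, 610.2 and 367 in WSD, and 190.0, 160.3 and 183 in control follicles. It rose in WSD (1.36, adjusted p = 0.00832) and fell in WSD+T against WSD (-1.03, adjusted p = 0.0490). The elongation factor TUFM and its exchange factor TSFM were at -0.34 and -0.64 in WSD and did not pass (adjusted p = 0.197 and 0.0526). None of the 14 was called in WSD+T against control, beside 2.35% of all tested genes.

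Of 18 tested genes from a list of 27 for other steps of cytosolic translation, 1 rose and 1 fell in WSD against control. The shares over all tested genes were 4.74% higher and 10.7% lower. ETF1, the release factor that reads stop codons, had 1887, 1849.8 and 1910.0 in WSD+T, 3001, 2295 and 2613 in WSD, and 1639, 1804 and 1856 in control follicles (0.57, adjusted p = 0.0302). MTOR, the kinase that couples nutrients to initiation, had 496, 501 and 462 in WSD+T, 303, 407 and 294 in WSD, and 494, 658 and 506 in control follicles (-0.70, adjusted p = 0.0307). None of the 18 was called in WSD+T against control or in WSD+T against WSD, beside 2.35% and 2.85% of all tested genes.

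The number of calls depended on how arrays were scaled. In WSD against control, quantile normalization, median centring and cyclic loess each left 1 of the 14 mitochondrial enzymes called, LARS2. Of all 26383 tested probe sets, 1967, 1286 and 1737 were then called lower, in the same order, against 2555 as deposited. A share of 1 in 14 is near that of all probe sets under these scalings. Under each of these 3 scalings the WSD call of EIF4E was lost as well, and EIF5A was called higher in WSD. Centring and quantile normalization also lost EIF1B in WSD against control, EIF4E in WSD+T against control and LARS2 in WSD+T against WSD, and centring lost GARS1, WARS1, EIF2B3 and EIF4G3. Loess added EIF2S1 in WSD against control and GARS1, as lower, in WSD+T against WSD. The median of the mitochondrial enzymes minus the median of all tested probe sets was -0.43 as deposited and after centring, -0.39 after quantile normalization and -0.37 after cyclic loess, and in each of these 13 of the 14 lay below that median (12 of 14 with array weights). Of all called probe sets 66.9% were lower as deposited, 56.8% after quantile normalization, 46.8% after centring and 50.3% after loess. The members were split into 4 higher and 9 lower as deposited, 4 and 3 after quantile normalization, 2 and 1 after centring, and 6 and 3 after loess.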

How the data were processed

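RNA of pooled SAFs was amplified, labelled with biotin and hybridised to 1-colour Affymetrix arrays, per the labels' protocols. The deposited values are linear intensity values per probe set that the authors made with MAS5, per the submitters' processing notes, scaled to a trimmed mean of 200.01 on every array with 2% left out at each end. The genome build is not given in the sources used here, and the sequences behind the probe sets were not used here. Left out were 99 control probe sets. Symbols came from the array annotation, and 142 of the 143 member probe sets had an Entrez ID found in RefSeq with the same symbol.

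Tests were run on probe sets whose mean log2(signal + 16) reached the median over non-control probe sets (5.22, a signal of about 21.2). One mean per group was fitted with limma 3.58.1 in R 4.3.3, with p values adjusted by Benjamini-Hochberg for each of 3 comparisons. The pipeline was tested on simulated data. Figures were drawn with matplotlib 3.10.9. Members, lists and tests were chosen with earlier results of these data known, so no count here is independent of them. Named were called members, the 5 with the highest signal and a fixed set, of which AARS, EPRS, TARS, EIF2AK1, EIF2AK2, EIF2AK4, EIF4EBP1, EIF4A1 and EEF2K are not analysed here. Other members were described by class, and some were singled out after their values were seen. The replicate numbers of the labels were checked for pairing by correlating deviations from group means, which ran from -0.30 to 0.19 with mixed signs, so they were not taken to pair samples. Alternatives changed the added constant, filter, scaling, weights, arrays and replicate block. The labels call the replicates biological, and the number of arrays limits the precision.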

Additional observations from a re-analysis of the deposited data

Results flagged for a closer look

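Probe sets below the filter on low signal were not tested. In 2 of them every array of a diet group was above every control array and that group's mean signal reached the filter signal of about 21.2. This rule picks probe sets by the group where they are high. How many of all probe sets below the filter meet it was not counted, so no conclusion is drawn from these 2. An EIF4A2 probe set averaged 34.2 in WSD follicles (28.6 to 40.3) and 12.1 in control follicles (5.06 to 23.1). An EIF4G2 probe set averaged 22.0 in WSD+T follicles (17.6 to 26.1) and 13.8 in control follicles (11.7 to 17.5). Other probe sets of both genes passed the filter, and their representatives were not called in any comparison.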

How the results depend on the processing

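Counts are given for all members, the cytosolic and the mitochondrial synthetases, which were 13, 2 and 6 in WSD against control, 1, 0 and 0 in WSD+T against control, and 2, 0 and 1 in WSD+T against WSD. Each count takes higher and lower calls together. Beside them, 3817, 520 and 789 of all 26383 tested probe sets were called in these comparisons. In WSD against control the member counts became 7, 2 and 1 with quantile normalization, 3, 0 and 1 with median centring, 9, 2 and 1 with cyclic loess, 1, 0 and 1 with the 2 groups alone, 28, 3 and 8 with array weights, 1, 0 and 1 with weights per group, and 3, 0 and 1 with WSD+T replicates 1 and 3 averaged. Of all tested probe sets 3465, 2745, 3451, 859, 11193, 1367 and 2536 were called, in the same order of settings. With array weights the 28 were 12 higher and 16 lower, the 3 were 2 and 1, and the 8 were 1 and 7. An added constant of 1 left 0 cytosolic genes, no filter 1, and a filter at the upper quartile 3 mitochondrial genes. In these, 3586, 3406 and 2398 of all tested probe sets were called, the last 2 from other numbers tested. In WSD+T against control the member counts were 4, 0 and 1 with the 2 groups alone, 11, 0 and 4 with array weights, and 9, 0 and 3 with weights per group, and the 1 member call became 0 with constant 1, no filter, the upper quartile, quantile normalization, centring and the averaged replicates. Of all tested probe sets 3265, 4746 and 3267 were called with the 2 groups alone, array weights and weights per group. The settings that left 0 members called 353, 415, 357, 623, 393 and 0 of all probe sets. In WSD+T against WSD the member counts were 42, 4 and 10 with array weights, 1, 0 and 1 with weights per group, 1, 1 and 0 with the upper quartile, 1, 0 and 0 with quantile normalization and centring, 3, 1 and 1 with loess, and 0, 0 and 0 with the 2 groups alone or averaged replicates. Of all tested probe sets 15595, 186, 807, 627, 300, 668, 9 and 0 were called, in the same order of settings. With array weights the 42 were 19 higher and 23 lower, the 4 were 1 and 3, and the 10 were 6 and 4. With the replicate block the member counts were 2, 0 and 1, then 0, 0 and 0 in both comparisons of WSD+T. Of all tested probe sets 2220 were called in WSD against control, then 3 and 1. Where few or no probe sets of the whole array were called, a count of 0 is not particular to the members. The replicate numbers were not taken to pair the samples, which the labels do not settle.

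Leaving out 1 array gave 2 to 12, 0 to 1 and 1 to 6 in WSD against control, with 2 members called without control replicate 2 or 3, 3 without WSD+T replicate 1 or 3, 4 without WSD+T replicate 2 or control replicate 1, and 5 without WSD replicate 1. Without WSD replicate 2 the 6 mitochondrial genes were 1 higher and 5 lower. Of all tested probe sets 1756 (without control replicate 2) to 6605 (without WSD replicate 3) were called. The same step gave 0 to 3, 0 to 0 and 0 to 1 in WSD+T against control, and 0 to 4, 0 to 1 and 0 to 1 in WSD+T against WSD. Of all tested probe sets 0 to 1770 and 0 to 1551 were called in these 2 comparisons. EIF2AK3 in WSD+T against WSD changed sign with array weights (0.48, adjusted p = 0.00232, against -0.05 and 0.930 unweighted); the cause was not tested. The weights per group, the averaged replicates and all settings for the mitochondrial enzymes were chosen after seeing the data. The 3 arrays per group and the low signals of EIF4E, EIF5A and EEF2 limit the precision of their values.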
